A study of Mus musculus with 6 samples.

Results

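Regions of open chromatin that lay deep inside genes and were called in every library were examined in haematopoietic stem cells (HSCs) sorted from the bone marrow of mice. The assay was ATAC-seq: a transposase cuts accessible DNA and adds adapters to it, so that sequenced fragments pile up into peaks. Wild-type C57BL/6J mice had been injected intraperitoneally with tunicamycin at 2 mg per kg (3 libraries), or with DMSO, its solvent (3 libraries). HSCs were sorted as CD48-CD150+ cells of the lineage-negative, Sca-1+ and c-Kit+ (LSK) gate, about 5000 per library. For the age of the mice and the time from injection to harvest no value is given in the sources used here. Nor is it stated that replicates came from separate animals, so p-values reflect the spread among libraries, and that spread may be technical.

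The regions were selected on the authors' peak calls, 1 peak list per library. Peaks that overlapped by at least 1 bp were merged into 82993 union regions, of which 20810 were called in all 6 lists and are termed constitutive. Of these, 3896 lay inside a protein-coding gene and more than 10 kb from the start or end coordinate of every protein-coding gene (mm10, RefSeq gene table). They are called deep constitutive regions here. The term gene end covers both the start and the end coordinate of a protein-coding gene, so regions at gene ends include those at gene starts. The number of calls and the position were thus used to choose the deep constitutive regions and are described without a test. Being called in every list does not mean equal openness in every library, and a region without a call may still be open.

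Open chromatin far inside a gene is often an enhancer, an insulator bound by CTCF or an alternative promoter, and the enhancers of blood-cell genes are bound by factors such as RUNX1, the ETS proteins, GATA2 and MEIS1. An intragenic enhancer can act on its host gene or on a neighbour, so the host named for a region is its position and not its target. Tunicamycin blocks N-linked glycosylation in the endoplasmic reticulum (ER), and proteins that fail to fold there set off the unfolded protein response. In HSCs this response bears on survival under stress.

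Among the deep constitutive regions were internal start sites of genes for HSC transcription factors and cofactors. In a RefSeq table of listed transcription starts, which is not complete, 334 of the 3896 regions (8.57%) held at least 1 start although they were over 10 kb from every protein-coding gene end. Of these, 286 held an internal start of their own host gene, from 278 genes, and 48 held a start of another gene only, 46 of them long non-coding RNAs and 2 of them coding. In a list of 40 HSC transcription factors and cofactors, 5 genes had an internal start inside such a region. The reference sequence of all 5 is given because it shows what an internal start called in every list can look like. Each run goes 5′ to 3′ on the gene's strand, from 250 bases before the start to 50 bases from it onward (RefSeq, GRCm38.p6), and capitals mark the GC box GGGCGG and the CCAAT box CCAAT, which general promoter factors bind, on either strand.
Runx1: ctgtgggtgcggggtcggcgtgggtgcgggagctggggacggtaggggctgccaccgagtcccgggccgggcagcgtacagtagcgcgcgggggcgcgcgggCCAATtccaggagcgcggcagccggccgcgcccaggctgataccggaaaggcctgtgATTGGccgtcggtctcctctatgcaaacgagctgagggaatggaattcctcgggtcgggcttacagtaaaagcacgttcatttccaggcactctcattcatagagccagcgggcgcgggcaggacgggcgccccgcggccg
Cbfa2t3: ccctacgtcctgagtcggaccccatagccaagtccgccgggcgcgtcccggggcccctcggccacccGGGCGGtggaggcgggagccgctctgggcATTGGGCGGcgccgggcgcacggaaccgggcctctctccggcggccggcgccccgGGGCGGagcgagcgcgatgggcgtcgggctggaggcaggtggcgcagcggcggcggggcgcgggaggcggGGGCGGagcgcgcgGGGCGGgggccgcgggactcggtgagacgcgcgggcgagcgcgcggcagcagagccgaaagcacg
Elf1: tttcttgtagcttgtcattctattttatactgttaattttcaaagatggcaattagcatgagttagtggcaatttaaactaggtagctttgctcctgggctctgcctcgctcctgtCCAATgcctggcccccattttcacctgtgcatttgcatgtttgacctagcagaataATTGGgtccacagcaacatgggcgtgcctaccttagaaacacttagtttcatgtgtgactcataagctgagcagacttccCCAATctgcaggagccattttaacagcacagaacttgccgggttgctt
Erg: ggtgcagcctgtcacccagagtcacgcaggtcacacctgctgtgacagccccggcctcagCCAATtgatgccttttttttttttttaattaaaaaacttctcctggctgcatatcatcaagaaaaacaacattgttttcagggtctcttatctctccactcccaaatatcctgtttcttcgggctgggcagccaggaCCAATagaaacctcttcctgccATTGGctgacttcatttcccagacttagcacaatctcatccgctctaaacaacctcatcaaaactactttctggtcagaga
Stat5b: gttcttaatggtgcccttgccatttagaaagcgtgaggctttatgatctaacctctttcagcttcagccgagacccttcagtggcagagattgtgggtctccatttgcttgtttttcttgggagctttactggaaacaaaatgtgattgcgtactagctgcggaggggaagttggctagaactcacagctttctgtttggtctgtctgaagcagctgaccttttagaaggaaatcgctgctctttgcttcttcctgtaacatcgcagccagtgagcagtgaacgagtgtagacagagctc

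The Runx1 run (chr16:92697280-92697579, minus strand) belongs to the proximal promoter of the gene for RUNX1, a factor required for HSCs to form, 128.75 kb downstream of the gene's 5′ end. It had a GC content of 69.0%, held 2 CCAAT boxes and no GC box, and lay with all 300 bases inside the region. The run of Cbfa2t3 (chr8:122678126-122678425, minus strand), which encodes the corepressor ETO2, held 5 GC boxes and a CCAAT box that overlapped 1 of them, at a GC content of 81.7%, and 260 of its bases lay in the region. By contrast, the run of Elf1 (chr14:79515424-79515723, plus strand), the gene of an ETS factor, had a GC content of 44.7%, with 3 CCAAT boxes and no GC box. Erg (chr16:95459299-95459598, minus strand), which encodes an ETS factor needed to maintain HSCs, likewise had 3 CCAAT boxes and no GC box, at a GC content of 46.0%. Stat5b (chr11:100822521-100822820, minus strand), which encodes a transcription factor downstream of cytokine receptors, had neither box and a GC content of 47.3%. The internal starts of these genes were therefore of unlike base composition.

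Over all genes, internal starts called in all lists were richer in GC boxes than internal starts with no call. The table held 3250 listed starts inside a gene and over 10 kb from every gene end, of which 422 (13.0%) lay in a region called in all lists, 327 in a region called in 1 to 5 lists and 2501 in none. Their median GC content was 59.8% for the 422, 54.0% for the 327 and 47.7% for the 2501, against 52.7% over all 32851 listed starts. The median ratio of observed to expected CpG was 0.620, 0.431 and 0.230 in that order, against 0.384 over all listed starts. A GC box stood in 54.3% of the 422 called runs and in 11.9% of the 2501 uncalled runs, against 35.7% of all. The CCAAT box did not follow that order, with 32.5% of the called and 35.1% of the uncalled runs, against 37.4% of all. Of the motifs of blood-cell factors, searched on both strands, the ETS letters GGAAGT stood in 26.5% of the called and 19.1% of the uncalled runs (23.8% of all). The GATA letters AGATAA stood in 5.92% and 14.4% (11.2% of all), the RUNX letters TGTGGT in 14.9% and 20.4% (16.8% of all), and the AP-1 letters TGANTCA in 6.40% and 9.76% (7.81% of all). These shares describe letters in 300-base windows, no test was run on them, and base composition and motif content move together. Starts of the host gene itself were 338 of the 422 called in all lists, 224 of the 327 and 916 of the 2501 uncalled. The rest were starts of other genes, so the contrasts also compare unlike kinds of start, which were not separated.

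**Figure D1:**
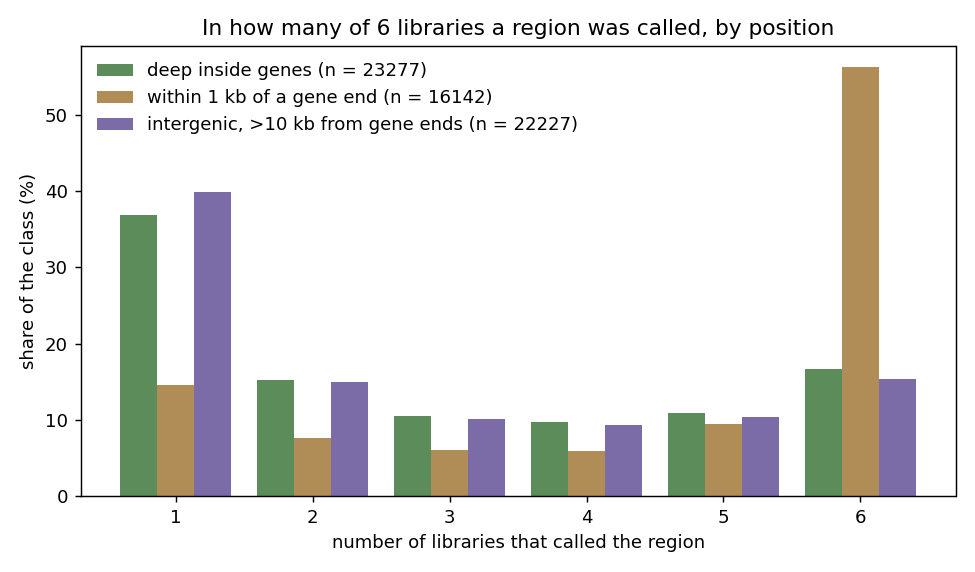
Share of union regions (y axis, percent) by the number of peak lists that called them (x axis, 1 to 6), for deep regions inside genes, for intergenic regions over 10 kb from every gene end and for regions within 1 kb of a gene end. Gene ends are the start and end coordinates of protein-coding genes. Of the deep regions 16.7% were called in all 6 lists and 36.9% in 1, against 56.2% and 14.6% of the regions at gene ends.

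Constitutive regions were the smaller part of the open chromatin deep inside genes. Of 23277 union regions in this position, 3896 (16.7%) were called in all 6 lists and 8590 (36.9%) in 1. In the comparison classes, 15.3% of 22227 intergenic regions over 10 kb from every gene end and 56.2% of 16142 regions within 1 kb of a gene end were called in all lists. Deep regions called in 5 lists numbered 2545, and DMSO 3, the shortest list, was the one without a call in 2010 of them (79.0%), so the border of the class was set mostly by that library. Without it, 5906 deep regions were called in all of the other lists.

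The libraries differed in length of list, and the deep regions followed it more steeply than regions at gene ends did. The lists held 44952, 56865 and 47789 peaks in tunicamycin 1, 2 and 3, and 62478, 38217 and 28501 in DMSO 1, 2 and 3. Of the deep regions called in at least 2 lists, the tunicamycin libraries called 68.1%, 84.7% and 73.1%, and the DMSO libraries 87.7%, 56.3% and 35.7%. Of the regions at gene ends called in at least 2 lists, the same libraries called 88.0%, 92.9% and 89.6% after tunicamycin and 96.8%, 81.4% and 69.2% after DMSO. The share was lower deep inside genes in 6 of 6 libraries, with differences between −33.5 and −8.21 percentage points (mean −18.7 ± 9.67, SD, n = 6). This is a description, since calls and position chose the deep regions. Cell identity was checked on marker genes that held, inside or within 1 kb, a region called in all lists. That was so for the HSC markers Hlf, Mecom, Procr and Kit, whereas Fgd5 reached 5 lists, Slamf1, which encodes the CD150 used in the sort, 2 and Tek 1. Among markers of other cells it was so for 12 of 25 lymphoid genes, 7 of 24 of neutrophils, monocytes and macrophages, 11 of 24 of erythroid cells and megakaryocytes and 9 of 20 of stroma and endothelium. Open chromatin at such a gene does not show that it is transcribed, and the part of other cells in the results was not tested. The HSC markers did not stand clearly apart from the lymphoid, erythroid and megakaryocyte, or stromal and endothelial ones. No share over all protein-coding genes is set beside these counts, so the check does not establish cell identity.

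**Figure D2:**
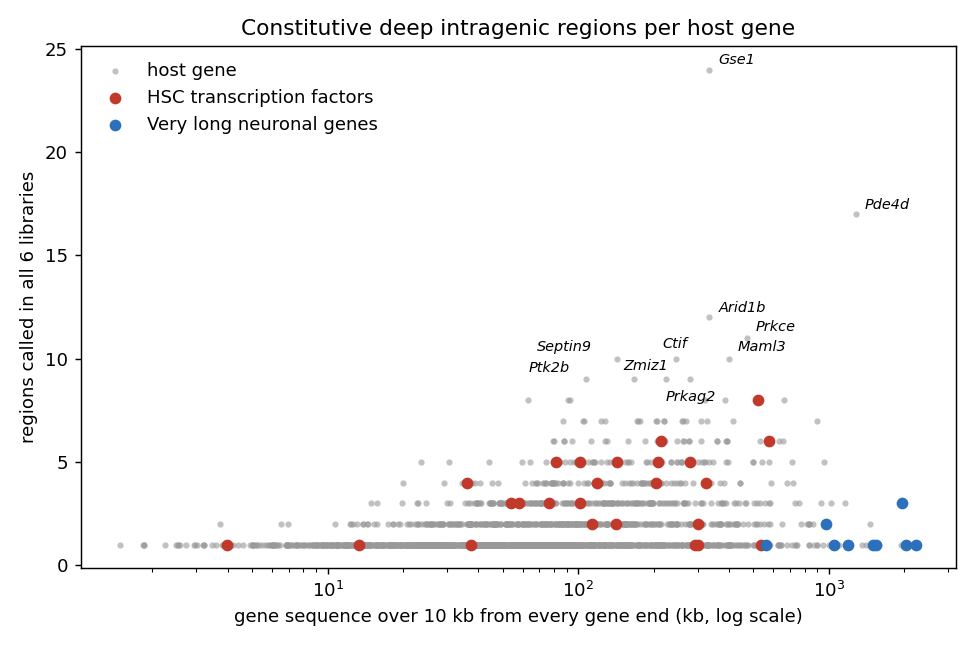
Host genes of the deep constitutive regions: number of regions in a gene against the length of the gene that lies over 10 kb from every gene end (kb, log axis), 1 point per host gene, with HSC transcription factors in red and very long neuronal genes in blue. Gse1 stands highest with 24 regions in 333 kb, and Pde4d holds 17 in 1282 kb.

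The deep constitutive regions were spread over many genes, with a few genes holding many. Of 9886 protein-coding genes with sequence over 10 kb from every gene end, 2122 (21.5%) hosted at least 1. All 9886 genes together offered 736 Mb of such sequence, which gives 5.29 regions per Mb. A single region was held by 1292 host genes (60.9%), 2 by 403, 3 or 4 by 295 and 5 or more by 132, which together held 823 regions (21.1%). Host genes were long, with a median of 95.1 kb against 42.4 kb for eligible genes without one, and 20 regions lay in 2 overlapping genes. Longer genes were more often hosts but held fewer regions per Mb. It was 4.30% of genes with under 10 kb of eligible sequence (9.44 regions per Mb), 14.2% at 10 to 30 kb (9.02), 28.7% at 30 to 100 kb (8.38), 42.8% at 100 to 300 kb (6.06) and 44.2% above 300 kb (2.00). The genes with the most eligible sequence were thus the sparsest.

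The spacing of regions within 1 host gene is described here without an expected value beside it. Between neighbours in the same gene, 1774 gaps had a median of 15.6 kb (quartiles 6.92 and 37.7), and 300 gaps (16.9%) were within 5 kb. The distance to the nearest gene end had a median of 29.9 kb (quartiles 17.2 and 56.4) and exceeded 100 kb for 415 regions. Where the strand of the host was known (3083 regions), 5 equal parts of the gene from 5′ to 3′ held 22.2%, 20.9%, 19.5%, 18.9% and 18.6% of the regions. Deep regions called in 1 list (n = 6739) were spread at 21.1%, 19.9%, 18.4%, 19.4% and 21.2%. The median distance from the 5′ end was 49.4 kb for the deep constitutive regions and 62.7 kb for those called once. The constitutive regions thus leaned toward the 5′ part by a few percentage points, which is given as a description.

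The 10 genes with the most regions held 121 of them, with ties ordered by density, and a ranking by count favours long genes. Gse1, whose human protein is found in histone deacetylase complexes, held 24 regions (72.1 per Mb) in a span at chr8:120228501-120581383. Those 24 were of uneven strength, their lowest percentile by fold enrichment over the 6 lists running between 0.245 and 75.4. The strongest by this measure (chr8:120563644-120564814) had fold enrichments of 7.57, 7.82 and 8.42 in the tunicamycin libraries and of 10.0, 7.96 and 8.41 in the DMSO libraries. Fold enrichment follows the length of a list, so groups are compared below by the rank percentile of a region among the 20810 constitutive regions of each library. For this region it was 50.5, 44.6 and 57.8 after tunicamycin and 60.2, 64.8 and 81.8 after DMSO, which did not overlap, with a difference of means of −17.9 that did not pass the test (limma adjusted p = 0.996). Another Gse1 region, chr8:120538557-120539177, held the hairpin of the microRNA Mir7687, and a region in Wdfy2 held that of Mir6541. These were the only listed microRNA hairpins in any of the 3896 regions.

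Pde4d, which encodes a cAMP-degrading phosphodiesterase, followed with 17 regions (13.3 per Mb) in a gene of 1302 kb, and Arid1b, a subunit of the BAF chromatin remodeller, with 12 (36.0 per Mb). Prkce, which encodes protein kinase C epsilon, held 11. Septin9, which encodes a cytoskeletal GTP-binding protein, Ctif, a factor of cap-dependent translation, and Maml3, a coactivator of Notch, held 10 each. Ptk2b, the gene of the tyrosine kinase PYK2, held 9 regions at the highest density among the 10 genes (83.5 per Mb), and Zmiz1, a transcriptional coactivator, and Prkag2, a regulatory subunit of AMP-activated kinase, also held 9. With all lists limited to the 28501 peaks of highest −log10 q-value, the length of the shortest, the number fell in all 10 genes. It was 16 for Gse1, 12 for Pde4d, 9 for Prkce, 8 for Ctif and Prkag2 and 7 for Arid1b, Maml3 and Ptk2b. For Septin9 it was 6 and for Zmiz1 4.

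**Figure D3:**
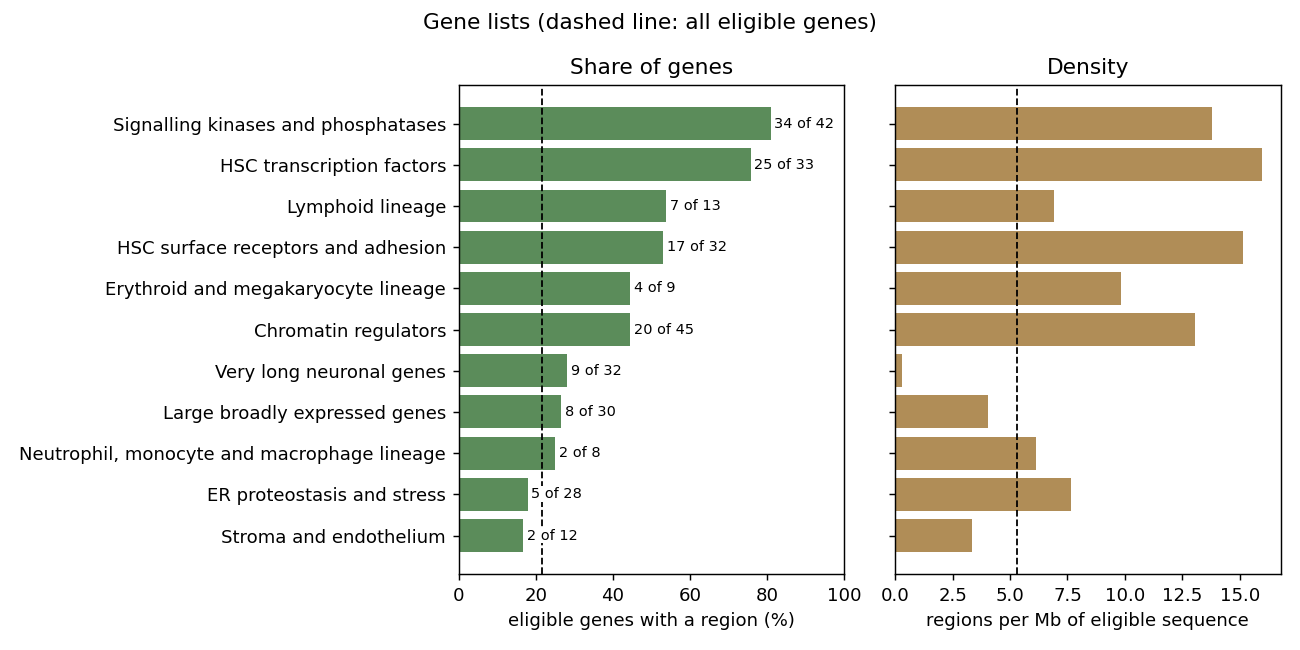
Percent of the eligible genes of each gene list shown that held at least 1 deep constitutive region (left, with the count beside each bar) and regions per Mb of eligible sequence (right), with the values over all eligible genes, 21.5% and 5.29 per Mb, as dashed lines. Kinases and phosphatases (34 of 42) and HSC transcription factors (25 of 33) stand highest, and ER proteostasis genes reach 5 of 28.

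Genes of HSC transcription factors commonly held a deep constitutive region. Of 40 listed genes, 33 were long enough to be eligible and 25 of those (75.8%) held 1 or more, 85 regions in all at 16.0 per Mb, against 21.5% and 5.29 per Mb over all eligible genes. The median eligible length in the list was 102 kb, and 42.8% of all genes with 100 to 300 kb held a region. Nfia, which encodes a nuclear factor I protein, held 8, Etv6, an ETS-family repressor, and Foxp1, a forkhead repressor, 6 each, and Elf1, Erg, Fli1, Mef2c and Runx2 5 each. The 8 eligible genes without one were Ikzf1, Ikzf2, Foxo1, Foxo3, Mef2d, Myb, Bcl11a and Hlf. The list was written for this work with earlier results of the data known, so its share is a description.

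In Meis1, the gene of a homeobox factor that keeps HSCs quiescent, the 4 regions differed in strength. The one at chr11:18969854-18970660 had fold enrichments of 8.02, 9.62 and 9.19 after tunicamycin and of 10.5, 9.78 and 8.19 after DMSO, and its lowest percentile over the lists was 79.1. The one at chr11:18957564-18958390 had 5.25, 7.36 and 6.41 after tunicamycin, against 4.95, 4.72 and 4.32 after DMSO. The rank percentiles of this second region, 16.3, 38.2 and 29.5 after tunicamycin and 5.41, 13.9 and 15.4 after DMSO, did not overlap either, with a difference of 16.5 (limma adjusted p = 0.996, unadjusted p = 0.067). Those of the first, 56.9, 67.6 and 67.3 after tunicamycin and 66.3, 83.9 and 79.99 after DMSO, overlapped. At a q-value of at most 1e-05, and also with lists of 1 length, the second region was no longer called in all lists. The region at chr11:18924680-18925463 was still called under both settings. Its rank percentiles, 78.4, 86.0 and 85.5 after tunicamycin and 72.7, 65.9 and 45.8 after DMSO, did not overlap. The difference was 21.8 (limma adjusted p = 0.996, unadjusted p = 0.047). The ranks of the region at chr11:18948737-18949406 overlapped.

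Runx1 held 4 regions, and the internal promoter shown above was the widest of them and had the lowest fold enrichment of the 4 in 5 of 6 libraries. Its union region spanned 1805 bp (chr16:92697163-92698967) with fold enrichments of 5.63, 4.60 and 4.32 after tunicamycin and of 5.45, 4.81 and 4.76 after DMSO, and the groups overlapped in fold enrichment and in rank. Of the 4, the region at chr16:92620731-92621609 had the highest lowest percentile over the lists (67.8). Its fold enrichments were 9.19, 9.47 and 9.14 after tunicamycin and 9.20, 7.12 and 6.28 after DMSO. Its rank percentiles, 71.1, 65.7 and 66.6 after tunicamycin and 50.1, 52.8 and 56.5 after DMSO, did not overlap, with a difference of 14.6 (limma adjusted p = 0.996). The others, at chr16:92786580-92787360 and chr16:92801488-92802206, lay between the internal start and the gene's 5′ end. The one at chr16:92801488-92802206 had a higher fold enrichment than that at chr16:92620731-92621609 in tunicamycin 3 (9.66), DMSO 1 (9.74) and DMSO 3 (6.91). In the other libraries it had a lower one. The 3 regions away from the internal start were 719 to 879 bp wide.

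Erg held 5 regions between 385 and 703 bp wide. Its internal start region (chr16:95459018-95459720) had low fold enrichments of 3.67, 4.31 and 3.82 after tunicamycin and of 4.74, 5.07 and 4.18 after DMSO, whose ranges overlapped. Its rank percentiles, 1.76, 3.62 and 2.12 after tunicamycin and 4.24, 19.3 and 11.95 after DMSO, did not, with a difference of −9.33 (limma adjusted p = 0.996, unadjusted p = 0.038). In Fli1, a related ETS gene, all 5 regions lay within 10 kb of one another (chr9:32507181-32516997) and none exceeded a fold enrichment of 5.66 in any library. The single region of Mecom, the gene of the HSC factor EVI1, had 3.71, 6.43 and 5.91 after tunicamycin and 3.98, 5.56 and 4.77 after DMSO. The internal start region of Elf1 had moderate values of 6.94, 7.04 and 7.14 after tunicamycin and 8.31, 7.37 and 6.33 after DMSO (lowest percentile 68.2). That of Cbfa2t3 was lower, with 5.17, 5.50 and 5.01 after tunicamycin and 5.65, 4.28 and 3.38 after DMSO (lowest percentile 4.24). At a q-value of at most 1e-05 the Cbfa2t3 start region and the Mecom region were no longer called in all lists. With lists of 1 length the same held for the Erg start region and again for the Mecom region. In rank percentile the groups overlapped at Elf1, and at Cbfa2t3 they did not, with 15.3, 14.0 and 11.1 after tunicamycin and 10.3, 7.52 and 1.79 after DMSO (difference 6.96, limma adjusted p = 0.996). Stat5b had 6.05, 4.89 and 6.01 after tunicamycin and 5.71, 4.91 and 4.58 after DMSO at its internal start, with ranks that overlapped.

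Genes of signalling enzymes reached a similar share. Of 42 eligible kinase and phosphatase genes 34 (81.0%) held a region, at 13.8 per Mb, led by Prkce (11), Prkch, which encodes protein kinase C eta, and Ptpre, a receptor-type tyrosine phosphatase (7 each), and Prkca, protein kinase C alpha (5). The median eligible length in this list was 107 kb, so these genes too were long.

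Surface receptors and chromatin regulators stood lower by share. Of 32 eligible HSC surface genes 17 (53.1%) held a region, among them Igf1r, the insulin-like growth factor receptor (6), Itga9, an integrin (5), Tgfbr2, a TGF-beta receptor (4), and Flt3, a cytokine receptor of early progenitors (3), whereas Kit, Tek and Slamf1 held none. Of 45 chromatin regulators 20 (44.4%) did, led by Arid1b (12), the remodellers Chd9 (7) and Chd7 (6) and the DNA methyltransferase Dnmt3a (5), with none in Tet2, Ezh2 or Kmt2a. Their densities were 15.1 and 13.1 per Mb, above the 5.29 of all eligible genes.

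ER proteostasis genes, the group closest to the action of tunicamycin, held a region about as often as all eligible genes. Of 46 listed genes 28 were eligible and 5 of these (17.9%) held a region, 13 regions at 7.65 per Mb, against 21.5% and 5.29 per Mb. The median eligible length in the list was 34.5 kb, and 28.7% of all genes with 30 to 100 kb held a region, at 8.38 per Mb. The 5 genes with a region included Itpr1 (5) and Itpr2 (3), which encode calcium channels of the ER membrane, and Ern1 (3), which encodes the stress sensor IRE1-alpha. The others were Edem1 (1), a factor of ER-associated degradation, and Uggt2 (1), a relative of the enzyme that checks glycoprotein folding. The other stress sensors Eif2ak3 (PERK) and Atf6 held none.

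Lists of other lineages also stood above the share of all genes in part. Lymphoid genes held a region in 7 of 13 eligible cases (53.8%, 6.89 per Mb, against 21.5% and 5.29 per Mb over all eligible genes), among them Lef1 and Skap1 (2 each), Gata3 and Tcf7, which act in T cells. Erythroid and megakaryocyte genes did in 4 of 9 (44.4%, 9.82 per Mb), with 2 in Vwf, the von Willebrand factor gene, which part of the HSCs also express, and 1 each in Itgb3, Sptb and Ank1. The median eligible length was 45.3 kb in the lymphoid list and 42.5 kb in the erythroid and megakaryocyte list. Of all genes with 30 to 100 kb, 28.7% held a region, at 8.38 per Mb. The lymphoid density lay below that value and the erythroid and megakaryocyte density above it. Genes with a region numbered 2 of 8 for neutrophils, monocytes and macrophages (Mrc1, Mertk) and 2 of 12 for stroma and endothelium (Flt1, Stab2). Very long neuronal genes, with a median eligible length of 1115 kb, held a region in 9 of 32 cases and only 12 in all, or 0.299 per Mb, with 3 in Dlg2, 2 in Astn2 and 1 in Dscam. Large broadly expressed genes, with a median of 150 kb, did in 8 of 30 (4.03 per Mb), so in these lists great length did not go with a high share.

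**Figure D4:**
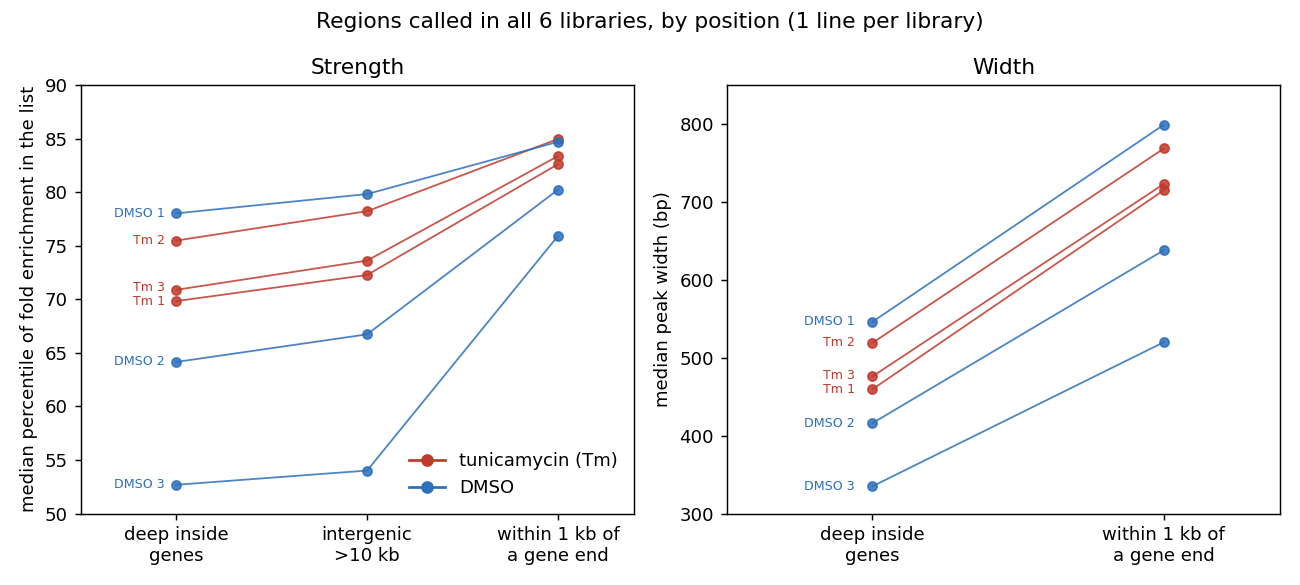
Median percentile of fold enrichment within each peak list (left, y axis from 50 to 90) and median peak width in bp (right, y axis from 300 to 850) for constitutive regions by position, 1 line per library. In 6 of 6 libraries the deep regions lie below the regions within 1 kb of a gene end (start or end coordinate) in both measures.

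Deep constitutive regions were weaker and narrower than constitutive regions at gene ends, which include gene starts. In this comparison both classes had been selected by calls in all lists. Within each list, peaks were ranked by the authors' fold enrichment, and the deep regions' median percentile was 69.8, 75.5 and 70.9 in tunicamycin 1, 2 and 3 and 78.0, 64.1 and 52.7 in DMSO 1, 2 and 3. For the 9078 constitutive regions within 1 kb of a gene end it was 82.6, 85.0 and 83.4 after tunicamycin and 84.7, 80.2 and 75.9 after DMSO. The deep regions were lower in 6 of 6 libraries (mean difference −13.5 ± 5.76, SD, n = 6, two-sided exact sign-flip permutation test, p = 0.031, the smallest possible, adjusted p = 0.031 over 4 comparisons of classes). Median peak widths were 459.5, 519 and 476 bp after tunicamycin and 546, 416 and 335 bp after DMSO deep inside genes, and 715, 768.5 and 723 bp after tunicamycin and 799, 638 and 520 bp after DMSO at gene ends. The difference was −235 ± 27.4 bp (SD, n = 6, exact sign-flip permutation p = 0.031, adjusted p = 0.031), with deep regions narrower in 6 of 6 libraries.

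Against the 3403 constitutive intergenic regions over 10 kb from every gene end, the deep regions differed little in strength. The intergenic median percentiles were 72.3, 78.2 and 73.6 after tunicamycin and 79.8, 66.7 and 54.0 after DMSO. The deep regions were lower in 6 of 6 libraries, with differences between −2.74 and −1.33 percentiles (mean −2.27 ± 0.577, SD, n = 6, exact sign-flip permutation p = 0.031, the smallest possible, adjusted p = 0.031). This difference is small beside the spread of either class between libraries. With peaks of a q-value of at most 1e-05, 80.3% of the deep regions, 92.4% of those at gene ends and 80.4% of the intergenic ones were still called in all lists. With lists of 1 length the shares were 73.0%, 91.4% and 75.0%.

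Deep constitutive regions on a listed start stood between the other deep regions and the gene ends. Their median percentile exceeded that of the other deep regions by 3.87 to 14.1 in 6 of 6 libraries (mean difference 8.31 ± 3.95, SD, n = 6, exact sign-flip permutation p = 0.031, the smallest possible, adjusted p = 0.031 over 2 comparisons). Their median peak was wider by 100.5 to 178 bp (mean 152 ± 28.7 bp, SD, n = 6, exact sign-flip permutation p = 0.031, adjusted p = 0.031). Both comparisons were added after the data had been seen. Union regions on a start had a median width of 855 bp, and the others of 645 bp.

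The regions covered a wide range of strength. Their fold enrichments ran from 2.55 to 31.1 over all libraries, with medians of 6.98, 7.71 and 7.26 after tunicamycin and 8.82, 6.33 and 5.35 after DMSO. The lowest percentile of a region over the 6 lists had a median of 43.5 (quartiles 22.7 and 64.4). At or above the 90th percentile in all lists were 102 regions (2.62%), against 1417 (15.6%) of the constitutive regions at gene ends, and 363 (9.32%) were under the 10th percentile in at least 1 list. Across the regions, Spearman correlations of the rank between libraries were 0.574 to 0.785, as a description over 3896 regions that share the same 6 libraries. The distance limit cut through a continuum, with 96 regions less than 0.5 kb beyond it (median width 672.5 bp, median lowest percentile 39.4) and 95 less than 0.5 kb short of it (711 bp, 37.8).

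The strongest deep regions had nearly the same fold enrichment in all libraries. A 419 bp region in Chl1, a neural cell adhesion gene (chr6:103648962-103649380), was the first peak of every list, with fold enrichments of 31.1, 29.7 and 30.1 after tunicamycin and 30.5, 29.4 and 28.1 after DMSO. Next came regions in Atrnl1, an attractin relative (23.1, 25.6 and 19.9 after tunicamycin, 23.4, 22.2 and 22.8 after DMSO), Filip1l, with 20.3, 20.7 and 20.8 after tunicamycin and 19.9, 19.9 and 19.4 after DMSO, and Cdk8, the gene of a kinase of the Mediator complex. Regions in Kctd16, which encodes a subunit associated with GABA receptors, and Mdga2, a synaptic adhesion gene, followed, and the lowest percentile of these 6 over the lists was 99.855 to 100. In these regions fold enrichment varied little between libraries whose median over the deep regions ran between 5.35 and 8.82. No list of artefact-prone regions was applied here, and whether reads map uniquely at these sites was not tested.

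The next 4 were in Uggt2, Itsn1, the gene of an endocytic scaffold, Cast, which encodes the calpain inhibitor calpastatin, and 1110004F10Rik, with their lowest percentile at 98.5 to 99.3. The Itsn1 region (chr16:91825762-91826511) had fold enrichments of 14.1, 17.2 and 14.1 after tunicamycin and of 17.3, 14.5 and 12.9 after DMSO. That of Uggt2 (chr14:119007168-119007979) had 14.0, 17.7 and 15.0 after tunicamycin and 16.9, 13.6 and 12.9 after DMSO. In both, the longest lists, tunicamycin 2 and DMSO 1, had the highest values and DMSO 3 the lowest, and the groups overlapped. The regions in Cast and 1110004F10Rik held a listed start.

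The widest deep regions had moderate enrichment. Union regions had a median width of 658 bp (quartiles 528 and 833, range 247 to 2761), against 942 bp at gene ends and 668 bp in intergenic sequence. The widest, of 2761 bp, lay in Nr3c1, the gene of the glucocorticoid receptor, with fold enrichments of 5.27, 5.30 and 5.42 after tunicamycin and of 5.53, 4.66 and 5.83 after DMSO. Rreb1, which encodes a zinc-finger factor in RAS signalling, had one of 2602 bp, and Rbpj, which encodes the DNA-binding factor of the Notch pathway, one of 1897 bp. Fam13b (1873 bp) and the Runx1 start (1805 bp) completed the 5 widest, of which those in Rreb1, Rbpj and Runx1 held a listed start. A union region can be wider than any of its peaks, since it joins the peaks of 6 lists.

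**Figure D5:**
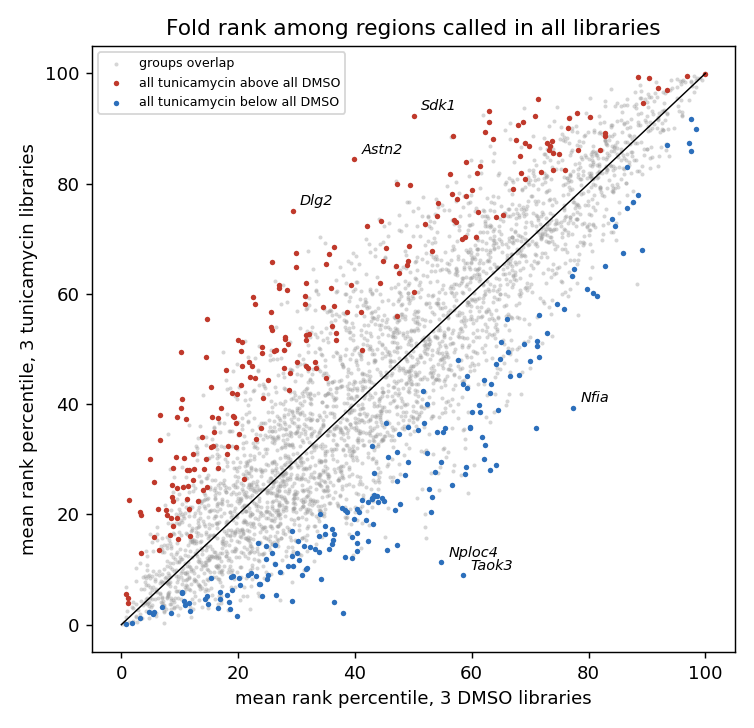
Mean rank percentile of each deep constitutive region among the 20810 regions called in all lists, after tunicamycin (y axis) against DMSO (x axis), with the diagonal of equal rank. The 6 named regions lie farthest from the diagonal among those whose groups do not overlap, Dlg2, Astn2 and Sdk1 above it and Taok3, Nploc4 and Nfia below it.

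Tunicamycin and DMSO libraries were compared by ranks, since fold enrichment follows the length of a list. Each library's 20810 constitutive regions were ranked by fold enrichment, so that every library has the same number of ranks. The deep regions' median rank percentile was 41.6, 42.9 and 41.7 in the tunicamycin libraries and 45.5, 40.5 and 38.7 in the DMSO libraries. The tunicamycin values lay inside the range of the DMSO values. These medians still followed the order of list length, from 38.7 in DMSO 3, the shortest list, to 45.5 in DMSO 1, the longest. Ranking therefore did not free this comparison from the length of the lists. The means were 42.1 ± 0.748 after tunicamycin and 41.6 ± 3.49 after DMSO (SD, n = 3 each), and the difference of 0.507 had a two-sided exact permutation p of 0.8 (adjusted p = 0.8 over 2 comparisons), where the smallest possible is 0.10. Leaving out tunicamycin 2 (−0.0299) or DMSO 3 (−0.337) turned its sign. Median width was 484.8 ± 30.7 bp after tunicamycin and 432.3 ± 106 bp after DMSO (SD, n = 3 each), a difference of 52.5 bp (exact permutation p = 0.5, adjusted p = 0.8) that became −0.167 bp without DMSO 3.

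No deep region passed the test for a change of rank. A limma model of normal scores of the ranks over all 20810 regions called 0 of them (0%) at a Benjamini-Hochberg adjusted p under 0.05, and so 0 of the 3896 deep regions, with 0.541 as the smallest adjusted p. At an unadjusted p under 0.05, limma gave 125 deep regions with a higher rank after tunicamycin (3.21%, against 2.36% of all 20810) and 99 with a lower rank (2.54%, against 1.99% of all). When log2 fold enrichments centred in each library replaced the ranks, the split turned to 113 higher and 138 lower, with 0 calls after adjustment. Over all 20810 regions it turned too, to 391 higher and 558 lower. With −log10 q ranked in place of fold enrichment, the split was 138 higher and 159 lower, against 534 and 604 over all. Without tunicamycin 2 it was 77 higher and 90 lower, against 312 and 314 over all 20927 constitutive regions of that run. The turn was thus not particular to the deep regions. Regions whose 3 tunicamycin and 3 DMSO ranks did not overlap numbered 207 on the higher side (5.31%, background 4.66%) and 185 on the lower side (4.75%, background 4.55%), near the share over all constitutive regions on both sides. With −log10 q ranked they numbered 217 and 232, so neither direction prevailed under both measures. Under that ranking the number over all constitutive regions was not taken.

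The 3 deep regions with the largest positive rank difference among those without overlap were in Dlg2, Astn2 and Sdk1, of which Dlg2 and Astn2 also stood in the list of very long neuronal genes. In Dlg2, which encodes a synaptic scaffold (chr7:91716647-91717214), the rank percentiles were 71.6, 85.4 and 68.3 after tunicamycin and 50.3, 18.5 and 19.3 after DMSO. In Astn2, an astrotactin gene (chr4:66057045-66057750), they were 79.7, 89.995 and 83.6 after tunicamycin and 53.5, 53.1 and 13.2 after DMSO. In Sdk1, which encodes an adhesion protein of synapses (chr5:141884139-141884763), they were 92.3, 90.2 and 94.6 after tunicamycin and 35.9, 67.2 and 47.3 after DMSO. The differences of means were 45.7, 44.5 and 42.2 percentile points, and limma's adjusted p was 0.996, 0.996 and 0.852, so none was distinguishable from the spread between libraries after adjustment.

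On the other side stood regions in Taok3, a stress-activated kinase gene, Nploc4, whose product is a cofactor of the segregase p97 in ER-associated degradation, and Nfia. The Taok3 region (chr5:117149361-117149807) had rank percentiles of 10.9, 13.2 and 2.88 after tunicamycin and of 54.5, 63.2 and 57.7 after DMSO, a difference of −49.5 with the lowest adjusted p of all (limma, 0.541). The Nploc4 region (chr11:120404874-120405212) had 5.78, 24.8 and 3.36 after tunicamycin and 56.1, 44.7 and 63.3 after DMSO (difference −43.4, limma adjusted p = 0.889). For the Nfia region (chr4:97657552-97658176), 1 of the 8 in that gene, the values were 30.2, 50.8 and 37.1 after tunicamycin and 88.5, 69.7 and 73.9 after DMSO (difference −38.0, limma adjusted p = 0.996). In all 3 the groups were apart, and none passed the threshold. With lists of 1 length, the Taok3 and Nploc4 regions were no longer called in all lists. At a q-value of at most 1e-05 this held for the Nploc4 and Astn2 regions. With 3 libraries a group and unequal lists, a change in a single region of this kind may not be detectable.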

How the data were processed

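ATAC-seq peak lists of 3 tunicamycin and 3 DMSO libraries were used as the authors deposited them, 1 list per library, so peaks had been called by library. Trim Galore 0.4.4, Bowtie2 2.2.9, Picard, MACS2, featureCounts and the build mm10 are named in the submitters' processing notes. What each did, how transposase offsets were treated and at which threshold peaks were kept is not given in the sources used here. The largest q-value of a peak in a list lay between 0.0482 (DMSO 2) and 0.0500 (DMSO 3). For every peak the authors deposited a display score, the −log10 of a p-value and of a q-value, and a fold enrichment, a ratio over background, which served to rank peaks within a list. Read depth is unknown from peak lists, so no counting interval is given, and the number of peaks served as a guide to sensitivity.

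Peaks of the autosomes, X and Y were merged at an overlap of 1 bp, without the 109 to 138 peaks that each list held on further sequences. A region took the highest fold of its peaks in a library. Genes were the 21887 protein-coding genes of the RefSeq table for GRCm38.p6, the assembly of mm10. Exons and introns were not distinguished, and region sequences were not used because no genome was at hand. Start sites, strands and promoter sequences came from a RefSeq table that is not complete.

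Groups were compared by limma 3.58.1 (R 4.3.3) on normal scores of ranks and by two-sided exact permutation tests, and classes by exact sign-flip permutation tests over the 6 libraries, both with Benjamini-Hochberg adjustment. The procedures were tested on simulated data. The members and the 12 gene lists, whose 410 entries all matched a gene, were chosen with earlier results of these data known. A list and a marker gene are not reported here. Named were the 10 host genes with most regions, the 10 strongest and 5 widest regions, up to 4 genes per list with most regions and the 3 regions per direction with the largest rank difference without overlap. Other host genes and regions were picked as examples after their values were seen. Same-numbered libraries did not deviate together (correlations −0.0846, −0.0140 and 0.0297), so the numbers were not taken as pairs. Other computation used matplotlib 3.10.9, SciPy 1.17.1, pandas 2.3.3, NumPy 2.4.6 and Python 3.11.15.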

Additional observations from a re-analysis of the deposited data

How the results depend on the processing

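The 3896 deep constitutive regions and their 2122 host genes became 3127 and 1870 with peaks of a q-value of at most 1e-05 and 2845 and 1751 with lists of 1 length. They became 2025 and 1334 when a call required 50% cover of the region, and 2648 and 1377 at 20 kb from gene ends. Leaving out 1 library gave 3929 to 5906 regions and 2133 to 2756 host genes, the highest numbers without DMSO 3, since that list limits what all lists share. limma called 0 regions under every alternative, with smallest adjusted p-values of 0.289 to 1, also with same-numbered libraries as a replicate block (0.523). Regions without overlap between groups numbered 347 to 655 on the higher and 326 to 623 on the lower side with 1 library left out, where 5 libraries overlap less easily than 6. The rank difference of 0.507 became −0.307 when −log10 q was ranked, and ran between −0.337 and 2.16 with 1 library left out. Its sign turned without tunicamycin 2 (−0.0299) and without DMSO 3 (−0.337), and the cause was not tested. The width difference of 52.5 bp ran between −0.167 bp (without DMSO 3) and 108 bp. With the replicate block both differences were the same, 0.507 and 52.5 bp (exact permutation p = 1 and 0.5), and no call changed. With 5 libraries the sign-flip test cannot go below 0.0625, the value it gave for each comparison of strength or width in every such run. Deep minus gene-end regions then ran between −15.2 and −13.8 percentiles, −261.6 and −233 bp, and −17.4 and −14.8 percentage points of called regions. Deep minus intergenic regions ran between −2.73 and −2.13 percentiles, and regions on a start minus the others between 7.16 and 9.20 percentiles and 146 and 162 bp. Among named genes and lists, Maml3 had 6 regions and neuronal genes with a region numbered 5 at the stricter q-value, and lymphoid genes numbered 4 with lists of 1 length or at 20 kb. The balance of regions without overlap, 207 higher and 185 lower, turned when −log10 q was ranked (217 and 232) and without tunicamycin 2 (347 and 357). Counts without overlap over all constitutive regions were not taken under any alternative, so these changes are not read as particular to the deep regions. Peak lists limit the comparison to ranks of called regions, and differences in the degree of openness of uncalled regions were not analysed here.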
